A study of Mus musculus with 4 samples.

Results

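Complement is the part of innate immunity in which plasma proteins cut and activate one another on a surface that is to be cleared. The 9 genes described here are part of it, measured in the lung of mice given amiodarone, dabigatran or both drugs. They were C1qa, C1qb and C1qc, which encode the chains of C1q, C3, C4b, Cfb and Cfp, which encode central proteins of the cascade, and C3ar1 and C5ar1, which encode receptors for its small fragments. They were chosen by gene symbol, with earlier results of these data known, and all 9 were found among the 17780 genes of the deposited table.

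Amiodarone is an antiarrhythmic drug with known lung toxicity, and dabigatran is an anticoagulant that blocks thrombin. Male mice aged 6 to 7 weeks, of the strain C57BL/6 in the labels and C57BL/6J in the study's methods, received vehicle, amiodarone at 300 mg/kg, dabigatran at 60 mg/kg or both by mouth 5 times per week for 4 weeks, and poly(A)+ RNA of the left lung was sequenced. The labels give 28 days of treatment and the study's methods date the tissue to day 26. There was 1 library for each of the 4 groups, with 17498486 to 18903401 reads, so no difference has a replicate check and no p-value is given. Whether a library holds 1 mouse or several is not given in the sources used here.

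C1q starts the classical pathway. It binds antibody or other ligands and switches on the proteases C1r and C1s, which cut C4 and C2. All pathways meet at C3, whose large fragment coats targets for phagocytes. The alternative pathway amplifies this step with factor B, encoded by Cfb, which is cut by factor D, while properdin, encoded by Cfp, stabilizes the enzyme that results. The small fragments C3a and C5a attract and activate leukocytes through the receptors encoded by C3ar1 and C5ar1. The liver is the main source of most plasma complement, whereas macrophages are the main source of C1q and also make properdin, and alveolar epithelial cells make C3.

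The 3 chains of C1q are related and lie side by side. In GENCODE M21 (GRCm38), C1qb spans chromosome 4 from 136880129 to 136886187, C1qc from 136889804 to 136893065 and C1qa from 136895917 to 136898803, all on the minus strand, with gaps of 3616 and 2851 bases between them. Each chain has a stretch in which glycine recurs at a regular interval, which lets the chains wind into a collagen-like helix. The longest uninterrupted run in it has 16 units in C1qa, 29 in C1qb and 16 in C1qc. The extent of the whole stretch was not determined. The first 72 bases of each run are shown to display this shared feature, read on the coding strand, with the glycine codons (GGN) in capitals. They start at coding base 184 of C1qa, 91 of C1qb and 202 of C1qc.
C1qa: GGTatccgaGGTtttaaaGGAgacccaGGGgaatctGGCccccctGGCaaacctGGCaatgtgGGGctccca
C1qb: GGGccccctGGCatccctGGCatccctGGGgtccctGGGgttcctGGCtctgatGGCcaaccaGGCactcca
C1qc: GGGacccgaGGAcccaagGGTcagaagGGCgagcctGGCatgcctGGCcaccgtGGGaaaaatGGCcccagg
In pairwise alignments the coding sequences were identical at 65.6% of aligned bases for C1qa and C1qc, 62.3% for C1qb and C1qc and 60.8% for C1qa and C1qb.

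Reads of C4b are harder to assign, because mouse has a close relative of it, C4a, 65209 bases from it on chromosome 17. C4b lies from 34728380 to 34743882. Of 5207 aligned bases 96.1% were identical, and 16.4% of 100-base windows held no difference. A window around coding bases 2705 to 2764 of C4b is shown because it carries 13 of the differences, in capitals.
C4b: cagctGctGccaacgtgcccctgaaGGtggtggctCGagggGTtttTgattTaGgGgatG
C4a: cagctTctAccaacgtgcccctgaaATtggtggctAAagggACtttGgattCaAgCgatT
RSEM assigned nearly all of these reads to C4b, with 5414 to 7258 reads in a library, and C4a was listed at 0.16 FPKM with vehicle and 0.18 with amiodarone, and 0.10 with dabigatran alone and 0.06 with both drugs. FPKM corrects the fragments of a gene for the length of its transcript and for library depth, which allows levels of different genes to be compared. How the shared windows were divided was not tested, and C4b values are uncertain to that extent.

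The order of the members by FPKM was almost the same in every library, from C3 at 254 to 382, through C4b at 57.8 to 71.7 and the C1q chains at 27.7 to 81.2, to Cfb at 17.8 to 36.8, Cfp at 9.65 to 12.8, C5ar1 at 2.69 to 6.09 and C3ar1 at 1.24 to 2.82. In the amiodarone library C1qa and C1qb stood above C4b, and with both drugs C1qa did. The amiodarone library held the highest value of 4 members, C1qa, C1qb, C1qc and C3ar1, and the library with both drugs held the highest value of the other 5. For 6 members the vehicle library was lowest, Cfp having the same value with amiodarone.

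**Figure D1:**
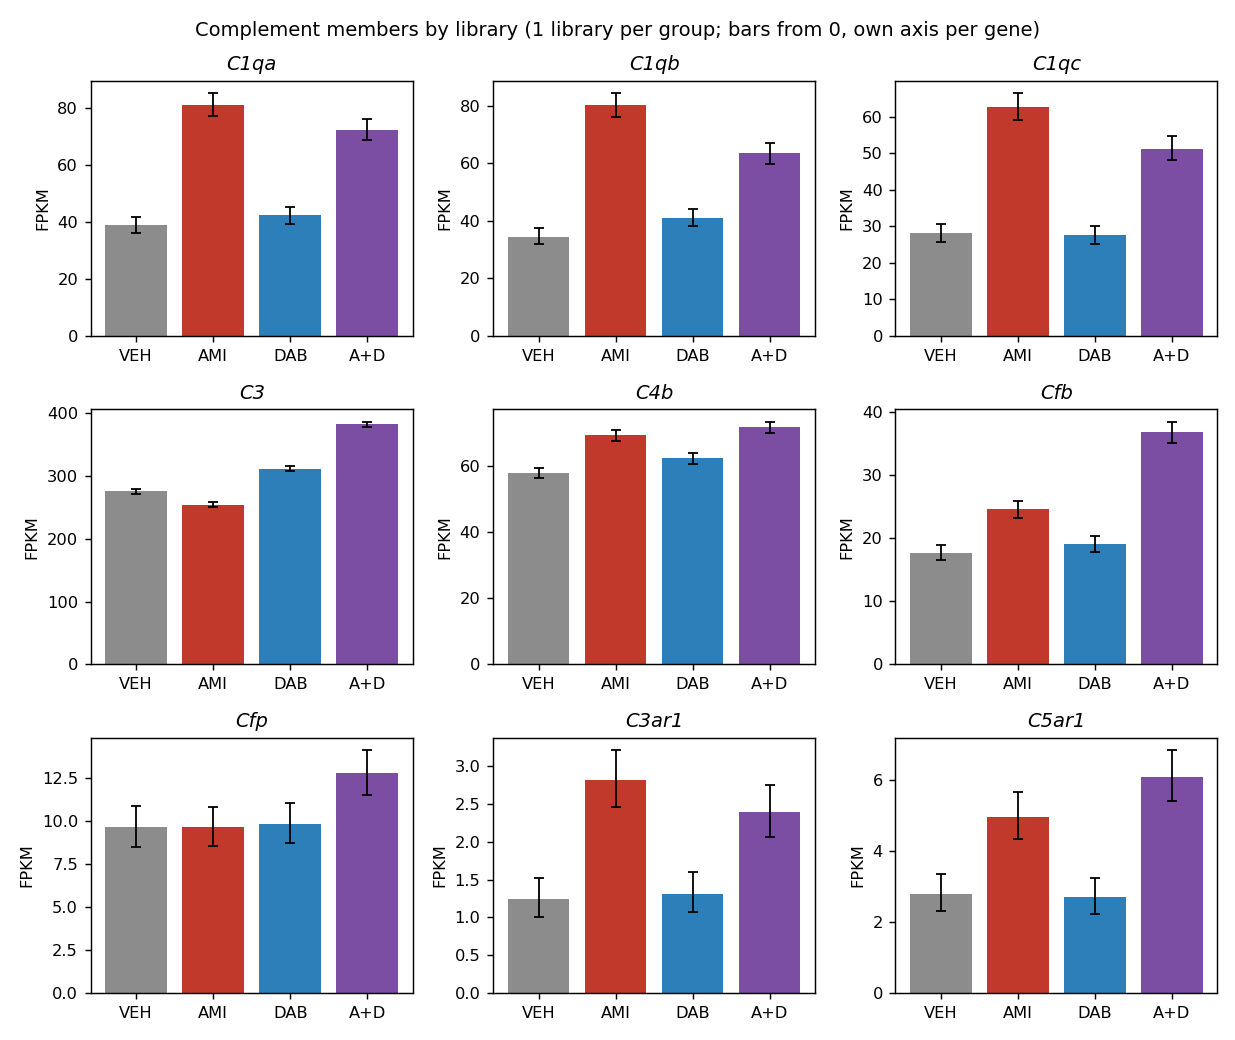
Level of each complement gene in FPKM (bars from 0, each panel with its own linear axis) in the libraries from mice given vehicle (VEH), amiodarone (AMI), dabigatran (DAB) or both drugs (A+D), with lines for the 95% counting interval. The C1q chains and C3ar1 were highest with amiodarone, while C3, C4b, Cfb, Cfp and C5ar1 were highest with both drugs.

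C1qa was at 39.0 FPKM with vehicle and 81.2 with amiodarone, and 42.4 with dabigatran alone and 72.5 with both drugs. C1qb was at 34.5, 80.2, 41.1 and 63.4 FPKM in the same order, and C1qc at 28.1, 62.8, 27.7 and 51.3 FPKM. Both libraries with amiodarone were higher than both without it, for each chain. How many of all genes had this order, here or for the members below, was not counted. The order is therefore not shown to be particular to these genes. Compared with vehicle, the amiodarone library had 2.08 times the FPKM of C1qa (95% counting interval 1.90 to 2.28), 2.32 times that of C1qb (2.11 to 2.56) and 2.24 times that of C1qc (2.01 to 2.49). These intervals come from 489 to 1561 reads per chain and library and cover counting error only, not the spread between mice.

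With dabigatran alone, C1qa was at 1.09 times the vehicle value (0.980 to 1.21) and C1qc at 0.985 times (0.868 to 1.12), both within counting error of no difference. C1qb was at 1.19 times (1.07 to 1.33). Co-treatment gave lower values than amiodarone alone for each chain, at 0.893 times for C1qa (0.830 to 0.960), 0.791 times for C1qb (0.732 to 0.853) and 0.817 times for C1qc (0.749 to 0.890). Compared with dabigatran alone, co-treatment was at 1.71 times for C1qa (1.57 to 1.87), 1.54 times for C1qb (1.41 to 1.69) and 1.86 times for C1qc (1.66 to 2.07). The summed FPKM of the chains was 102 with vehicle and 224 with amiodarone, and 111 with dabigatran alone and 187 with both drugs. Their proportions varied little, with C1qa at 36.2 to 38.7% of the sum, C1qb at 33.9 to 37.0% and C1qc at 24.9 to 28.0%.

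The receptor genes were low in every library. C3ar1 lies on chromosome 6 from 122847138 to 122856161, and was at 1.24 FPKM with vehicle and 2.82 with amiodarone, and 1.31 with dabigatran alone and 2.39 with both drugs, from 92, 225, 99 and 192 reads. Again both libraries with amiodarone were above both without it. The ratio of amiodarone to vehicle was 2.27 (1.78 to 2.93), and that of co-treatment to amiodarone was 0.848 (0.695 to 1.03), within counting error of no difference. C5ar1 lies on chromosome 7 from 16246743 to 16259540 and was at 2.80, 4.97, 2.69 and 6.09 FPKM, in the order vehicle, amiodarone, dabigatran, both. Both libraries with amiodarone were above both without it here too. The amiodarone library was at 1.78 times vehicle (1.42 to 2.24), and the highest value came with co-treatment, at 1.23 times amiodarone (1.03 to 1.47) and 2.26 times dabigatran (1.82 to 2.84). Dabigatran alone was within counting error of vehicle for both receptors, at 1.06 times for C3ar1 (0.787 to 1.42) and 0.961 times for C5ar1 (0.738 to 1.25).

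C3 differed from the C1q chains in being lowest with amiodarone alone. It lies on chromosome 17 from 57203970 to 57228136. C3 was at 275 FPKM with vehicle and 254 with amiodarone, and 311 with dabigatran alone and 382 with both drugs, the highest with co-treatment. The ratio of amiodarone to vehicle was 0.921 (0.902 to 0.94), that of dabigatran to vehicle 1.13 (1.11 to 1.15), that of co-treatment to amiodarone 1.504 (1.48 to 1.53) and that of co-treatment to dabigatran 1.23 (1.2 to 1.25). C3 made up 59.1% of the summed FPKM of the 9 genes with vehicle and 43.1% with amiodarone, and 60.1% with dabigatran alone and 54.6% with both drugs. C3 was also the member whose reads per unit of FPKM changed between libraries. In the amiodarone library they were, relative to vehicle, 0.919 of the factor for all genes, against 0.9997 to 1.005 for the other members, and the cause was not tested. From CPM, the reads scaled to the library total with no correction for length, the ratios were 0.847 for amiodarone to vehicle and 1.66 for co-treatment to amiodarone.

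Cfb lies on the same chromosome from 34856374 to 34862518. Its neighbour C2, the classical pathway counterpart of factor B, lies 85 bases beyond it, from 34862604 to 34898265. Both are on the minus strand, so the end of C2 and not its start faces Cfb. Cfb was at 17.8 FPKM with vehicle and 24.6 with amiodarone, and 19.1 with dabigatran alone and 36.8 with both drugs. Both libraries with amiodarone were above both without it, as for the C1q chains, but co-treatment and not amiodarone alone gave the highest value. Amiodarone was at 1.39 times vehicle (1.27 to 1.51), and co-treatment was at 1.497 times amiodarone (1.39 to 1.61) and 1.93 times dabigatran (1.78 to 2.09). C2 was at 16.1, 10.4, 16.1 and 13 FPKM, in the order vehicle, amiodarone, dabigatran, both, with a ratio of amiodarone to vehicle of 0.647 (0.576 to 0.725). The adjacent genes thus differed in opposite directions between the amiodarone and vehicle libraries.

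C4b and Cfp differed least. C4b was at 57.8 FPKM with vehicle and 69.2 with amiodarone, and 62.3 with dabigatran alone and 71.7 with both drugs, again with both libraries given amiodarone above both without it, and with a ratio of amiodarone to vehicle of 1.2 (1.16 to 1.24). Cfp, on chromosome X from 20925454 to 20931555, was at 9.65 FPKM with vehicle and with amiodarone, 9.84 with dabigatran and 12.8 with both drugs. Its ratio of amiodarone to vehicle was 1.0 (0.843 to 1.19), and that of co-treatment to amiodarone was 1.33 (1.14 to 1.55). Dabigatran alone was at 1.08 times vehicle for C4b (1.04 to 1.12) and for Cfb (0.978 to 1.18) and at 1.02 times for Cfp (0.859 to 1.21).

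**Figure D2:**
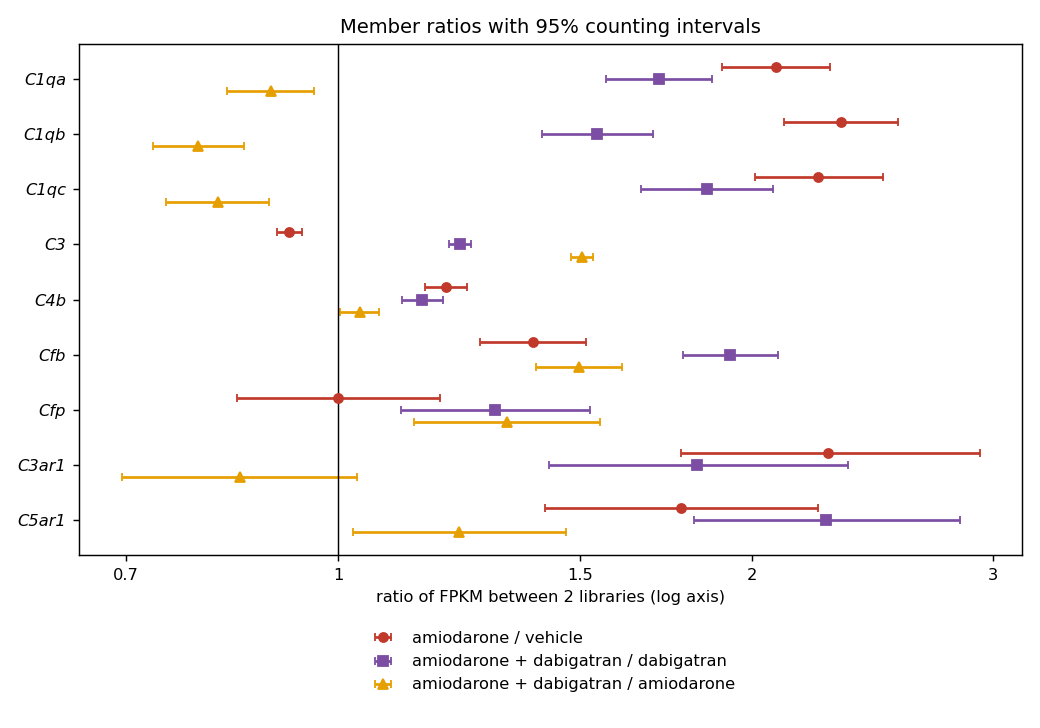
Ratio of FPKM between 2 libraries for each complement gene on a log axis, with bars for the 95% counting interval, for amiodarone to vehicle (circles), co-treatment to dabigatran (squares) and co-treatment to amiodarone (triangles). The C1q chains were above 2 in amiodarone to vehicle and below 1 in co-treatment to amiodarone, whereas C3 was below 1 in the first and at 1.504 in the second.

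To read these ratios against the whole table, a gene was counted as higher or lower when log2(FPKM + 1) differed by at least 1.5-fold, for genes that reached 1 FPKM in one or both of the libraries compared. This scale understates differences of genes with low values. Because the members were chosen with earlier results of these data known, the shares of all genes beside them are a description and not a test. Between amiodarone and vehicle 5 of the 9 members were higher (C1qa, C1qb, C1qc, C3ar1 and C5ar1) and 0 were lower, while 4.35% of 13402 genes were higher and 3.96% lower. The median log2 difference of the members was 0.65, against -0.05 for all genes tested. Between dabigatran and vehicle 0 members were higher or lower, and 0.449% of all genes were higher and 0.508% lower. The median was 0.10, against 0.00.

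Between co-treatment and amiodarone only C3 was counted as higher and 0 members as lower, with 1.06% of all genes higher and 1.23% lower. C3 stood at the limit, at a ratio of 1.504, and was below it when the libraries were rescaled by the median ratio over genes (1.46). Cfb, at 1.497, was just short of it. The median of the members was 0.05, against 0.03 for all genes. Between co-treatment and dabigatran 5 members were higher (C1qa, C1qb, C1qc, Cfb and C5ar1) and 0 lower, with 3.25% of all genes higher and 2.04% lower. C3ar1 was at 1.82 times on the FPKM ratio and missed the count only with the added 1 FPKM. The median was 0.61, against -0.01. Amiodarone to vehicle and co-treatment to amiodarone share the amiodarone library, so a high value there raises the first ratio and lowers the second. Amiodarone to vehicle and co-treatment to dabigatran share no library.

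**Figure D3:**
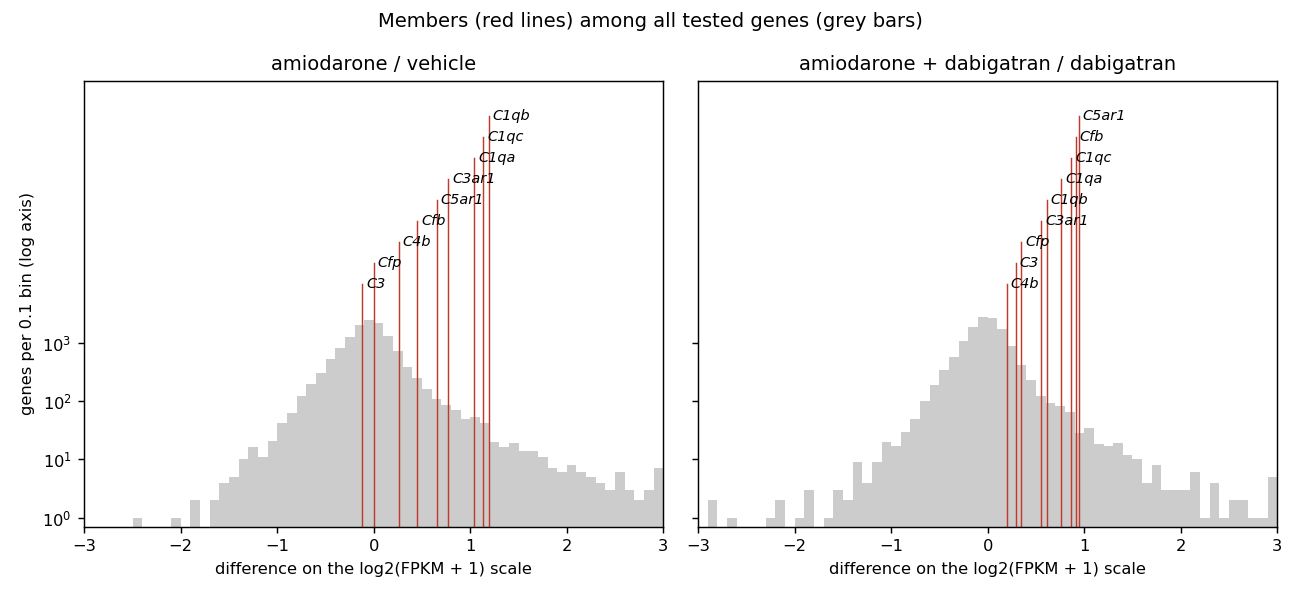
Differences on the log2(FPKM + 1) scale of all genes tested (grey bars, genes per bin of 0.1 on a log axis, with values beyond the axis placed in the end bins) for amiodarone to vehicle and for co-treatment to dabigatran, which share no library. Red lines mark the 9 complement genes by their position, and the height of a line carries no value. In the first panel C3 and Cfp lay near the bulk of genes and C1qa, C1qb and C1qc between 1.04 and 1.19, and in the second all 9 lay above 0, from 0.20 for C4b to 0.94 for C5ar1.

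Of 45 other complement genes listed by role, 42 were in the table and 27 had at least 1 FPKM in amiodarone or vehicle. Between these libraries 5 were higher and 3 lower, with a median log2 difference of -0.05, the same as for all genes. Of the higher ones 4 encode receptors. Itgam, Itgax and Itgb2 encode the integrin chains of complement receptors 3 and 4, which bind C3 fragments. Itgax, which also counts among the macrophage markers, was at 9.95 FPKM with vehicle and 25.7 with amiodarone, and 9.22 with dabigatran alone and 23.5 with both drugs, and Itgam and Itgb2 were at 1.96 and 1.88 times vehicle with amiodarone. Cd93, a surface protein of endothelial and myeloid cells once described as a C1q receptor, was at 76.6, 158, 83.7 and 117 FPKM. The fifth was Fcna, a ficolin of the lectin pathway, from only 6, 25, 56 and 90 reads.

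The lower genes were Cfd, Cd59a and Cr2. Cfd, which encodes factor D, was at 62.8 FPKM with vehicle and 21.3 with amiodarone, and 106 with dabigatran alone and 41.5 with both drugs, so the ratio of amiodarone to vehicle was 0.339 (0.299 to 0.384). Factor D is made mainly by fat cells. Of 6 adipocyte genes, listed after Cfd was seen, 5 were tested and 4 were lower by at least 1.5-fold with amiodarone than with vehicle, and the summed FPKM of all 6 was 49.5, 33.9, 51.1 and 41.5, or 20.6, 9.21, 24.8 and 14.9 without Fabp4, which dominates it. The part of this list in the Cfd values was not tested. Cd59a, which blocks the membrane attack complex, was at 11.7, 6.73, 8.49 and 7.31 FPKM. Cr2, the C3d receptor of B lymphocytes, was at 1.38, 0.50, 1.22 and 1.29 FPKM, and all 5 B lymphocyte genes, listed after Cr2 was seen, were lower with amiodarone, their sum being 176, 61.0, 149 and 106 FPKM.

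The 5 soluble regulators tested were all lower with amiodarone than with vehicle, 3 of them beyond counting error, with a median ratio of 0.931. Of these, 0 were past 1.5-fold. Serping1, the inhibitor of C1r and C1s, was at 296, 276, 322 and 307 FPKM. Of the membrane regulators 1 of 5 was past it, Cd59a. Cr1l, which had the highest mean of this role, was at 45.8, 49.5, 49.4 and 50.8 FPKM, and Cd55, which speeds the decay of the C3-cutting enzymes, was at 50.5, 34.2, 44.0 and 36.4 FPKM. C1ra, which encodes C1r and had the highest mean among genes that start the classical and lectin pathways, was at 43.9, 47.4, 45.8 and 46.6 FPKM. Of the terminal pathway, Hc, which encodes C5, was at 83.0, 92.9, 90.4 and 88.6 FPKM, and 0 of 3 tested were past 1.5-fold. In the other comparisons the numbers higher and lower were 2 (Cfd and Fcna) and 0 for dabigatran to vehicle, 3 (Fcna, Cfd and Cr2) and 0 for co-treatment to amiodarone, and 3 (Itgam, Itgax and Itgb2) and 2 (Cfd and C7) for co-treatment to dabigatran.

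**Figure D4:**
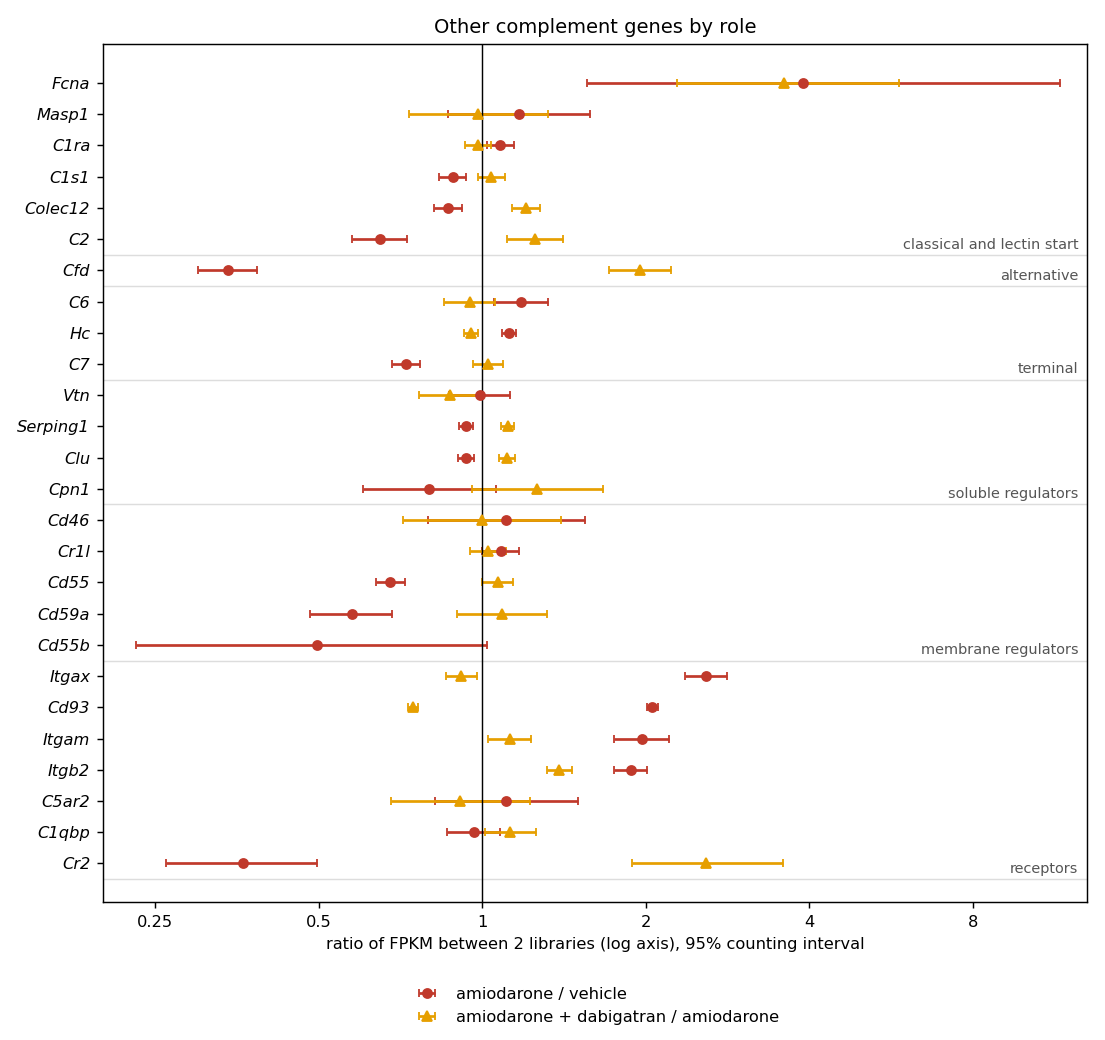
Ratio of FPKM between 2 libraries (log axis, bars for the 95% counting interval) of other complement genes tested in amiodarone to vehicle (circles), with co-treatment to amiodarone beside it (triangles), by role. In amiodarone to vehicle Fcna, Itgax, Cd93, Itgam and Itgb2 lay between 1.88 and 3.89, and Cfd and Cr2 at 0.339 and 0.362.

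Whole lung holds many cell types, and in such samples fewer or more cells of a type and less or more RNA per cell cannot be told apart. The libraries carried the markers of lung, with 25113 to 27052 FPKM over 7 alveolar type 2 genes and 3214 to 3463 over 5 alveolar type 1 genes. Liver genes were near 0, with 4 of 8 hepatocyte genes under 1 FPKM in every library and a sum of 1.73 to 5.72 FPKM. All 12 macrophage genes were higher with amiodarone than with vehicle, 10 of them beyond counting error and 7 past 1.5-fold. Their sum was 3528, 5134, 3829 and 4862 FPKM, or 131, 227, 137 and 244 without Lyz2, which dominates it. All 7 neutrophil genes were past 1.5-fold, with sums of 91.2, 596, 68.1 and 431 FPKM, and so were all 9 interferon response genes, with sums of 125, 530, 146 and 212 FPKM. Between co-treatment and amiodarone all 9 interferon response genes were lower, 8 of them past 1.5-fold. Mesothelial genes, which mark the lining of the lung, summed to 110, 62.0, 108 and 121 FPKM. Fibroblast genes summed to 443, 314, 510 and 350 FPKM and endothelial genes to 876, 887, 1010 and 801 FPKM, and all 3 club cell genes were lower with amiodarone than with vehicle. C3 was lowest in the amiodarone library. So were the sums of the mesothelial, fibroblast and club cell genes, and those of the adipocyte and B lymphocyte genes given above. Of these lists only the mesothelial sum was, like C3, highest with both drugs. The alveolar type 2 sum was 25633, 26193, 25113 and 27052 FPKM, lowest with dabigatran alone. The macrophage receptor gene Csf1r had the lowest ratio of amiodarone to vehicle in its list (1.05) and the Fc receptor gene Fcgr1 the highest (4.37). The part of these lists in the member values was not tested.

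**Figure D5:**
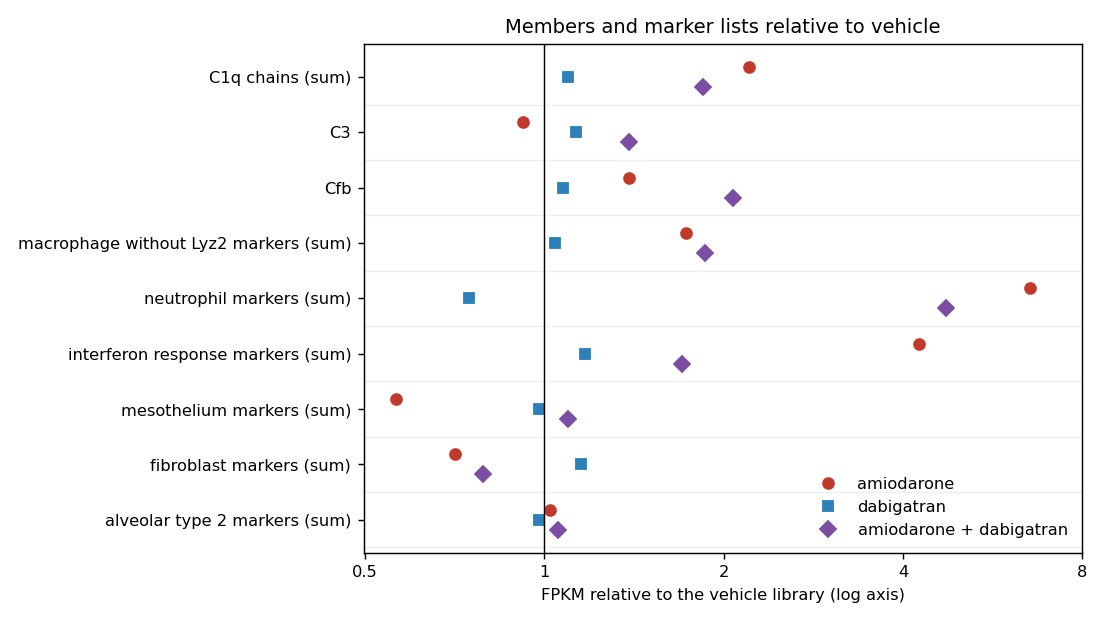
FPKM of C3, Cfb, the summed C1q chains and the summed marker lists relative to the vehicle library (log axis) in the amiodarone, dabigatran and co-treatment libraries, with 1 point for each. In the amiodarone library the sums were 6.54 times vehicle for neutrophil genes, 4.25 times for interferon response genes and 2.21 times for the C1q chains, and 0.562 times for mesothelial genes.

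For each member the genes with the nearest pattern were sought among 10140 genes with at least 5 FPKM in 1 library, by the distance between their 3 log2(FPKM + 1) differences to vehicle. With 4 libraries this is a loose description, and for C4b 89 genes lay within 0.1. The nearest gene, given for 8 of the members, was Acer2 for C1qa (distance 0.086), Bcl2a1a for C1qb (0.10), Sult1a1 for C1qc (0.081), Dock1 for C4b (0.011), Phgdh for Cfb (0.085), Pycard for Cfp (0.047), Gata2 for C3ar1 (0.049) and Laptm5 for C5ar1 (0.072). Among the members, C1qa and C1qc were closest (0.17), then C1qa and C1qb (0.20) and C3 and Cfp (0.21).

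Promoters of 6 of the 9 members were found in RefSeq for GRCm38.p6: C1qb, C1qc, C3, Cfp, C3ar1 and C5ar1. Of these, 3 held a match to a motif searched in the 250 bases before the start that the RefSeq table uses. For C1qc that start is 136892914, and the GENCODE start given above lies 151 bases further upstream, so its window is partly inside the GENCODE gene and is not shown. The windows of C1qb and C3 are shown with the match in capitals, 5′ to 3′ on the minus strand that carries these genes. For C1qb the starts of both annotations were 13 bases apart and for C3 they were the same. C1qb is at chr4:136886201-136886450 and C3 at chr17:57228137-57228386.
C1qb: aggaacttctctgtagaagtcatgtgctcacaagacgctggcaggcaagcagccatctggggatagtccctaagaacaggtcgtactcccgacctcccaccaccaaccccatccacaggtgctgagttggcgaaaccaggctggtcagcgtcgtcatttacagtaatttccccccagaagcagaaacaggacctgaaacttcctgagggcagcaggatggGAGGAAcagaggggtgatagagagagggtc
C3: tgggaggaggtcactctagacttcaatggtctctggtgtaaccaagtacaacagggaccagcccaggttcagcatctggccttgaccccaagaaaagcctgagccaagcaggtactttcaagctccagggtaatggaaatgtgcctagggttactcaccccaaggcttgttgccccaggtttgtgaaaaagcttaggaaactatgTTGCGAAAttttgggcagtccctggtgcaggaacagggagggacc
On both strands, the core of a site for PU.1, a myeloid transcription factor (GAGGAA), was found in C1qb at 30 to 25 bases before the start and in C1qc at 193 to 188 bases before the RefSeq start on the reverse strand, and in 23.3% of 32851 promoters of the same length. A core of a C/EBP site (TTGCNNAA) was found in C3 at 45 to 38 bases before the start and in 9.56% of promoters. The interferon-stimulated response element core (GAAA, any 2 bases, GAAA), the STAT palindrome (TTCNNNGAA) and the kappa B core (GGGA, any 2 bases, TTCC) were found in 0 of the 6 members, and in 2.98%, 7.02% and 1.21% of promoters. For C5ar1, which held no match, the GENCODE start lies 202 bases upstream of the RefSeq start. Its window is therefore mostly inside the GENCODE gene, and the lack of a match there says little about its promoter. A match is a description of the letters and not a binding site.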

How the data were processed

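Lung RNA of 4 mouse groups was sequenced with DNBseq. The authors aligned reads to GRCm38.p6 using HISAT 2.0.4 and to gene sequences using Bowtie2 2.2.5, and RSEM 1.2.8 gave the expression values; the submitters' processing notes also name GENCODE M21. The deposited table of 17780 genes gives an estimated count of reads and a normalized value per library. The authors do not name the unit of that value, and it was read as FPKM. Among genes with over 200 reads, reads per value relative to vehicle lay within 5% of their median factor for 96.7 to 97.2% of genes. C3 in the amiodarone library was an exception. Any value scaled by transcript length and by library would behave in this way, so the unit is not settled by it. Of the columns, 8 held means over 2 libraries and were not used. Of the gene identifiers, 17669 matched RefSeq.

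Libraries were grouped by their labels. Ratios of FPKM were given 95% Clopper-Pearson intervals (scipy 1.17.1, Python 3.11.15) from the estimated reads, rounded to whole numbers. With 1 library per group no test was run. Sequenced fragments are not independent molecules, and a count of 0 allows up to 3 reads, 1.71e-05% of the vehicle library. The procedure was run on simulated data that held counting error only, which says nothing about the spread between mice. The 9 members and all lists were chosen with earlier results of these data known, the adipocyte and B lymphocyte lists after Cfd and Cr2 were seen and the motifs after the sequences were seen. Named genes were all members, other complement genes past 1.5-fold in amiodarone to vehicle or co-treatment to amiodarone, the highest gene of each role and the nearest profiles, with marker lists mostly given as sums; C2, C7, Cd55, Adgre1 and Cd68 were named after their values were seen. Alternatives were a pseudocount of 0.1, a filter of 5 FPKM or none, 2-fold, CPM and rescaling by the median ratio over 12728 genes. Results for 2 genes are not reported here.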

Additional observations from a re-analysis of the deposited data

Results flagged for a closer look

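The ratios of C3 with and without amiodarone lay on opposite sides of 1 in the absence and presence of dabigatran. Without dabigatran, the amiodarone library had 0.921 times the FPKM of C3 in the vehicle library. This lower value was small and within the bulk of genes, at percentile 37.3 of all genes tested. It was 0.953 after rescaling by the median ratio and 0.847 from CPM. C3 reads per unit of FPKM were also unusual in the amiodarone library, at 0.919 of the factor for all genes. With dabigatran in both libraries, co-treatment had 1.23 times that of dabigatran alone. With 1 library per group the difference was not tested.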

How the results depend on the processing

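The 4 libraries allow no measure of the spread between mice, and the low receptors limit precision. No ratio of a member reversed under any alternative run; 67 of 72 moved by less than their counting interval, and the other 5 were all of C3. Requiring 5 FPKM left 3 members higher between amiodarone and vehicle, 1 other complement gene higher between dabigatran and vehicle and 1 between co-treatment and amiodarone, where the median of members became 0.149. At 2-fold the members higher were 3 between amiodarone and vehicle, 0 between co-treatment and amiodarone and 0 between co-treatment and dabigatran; of the other complement genes 2 were higher and 1 lower between amiodarone and vehicle, 1 higher and 0 lower between dabigatran and vehicle and likewise between co-treatment and amiodarone, and 2 higher and 1 lower between co-treatment and dabigatran. With a pseudocount of 0.1, 5 other genes were lower between amiodarone and vehicle and 1 between dabigatran and vehicle, and the median of members between co-treatment and dabigatran was 0.773. With CPM, 1 other gene was lower between dabigatran and vehicle and that median was 0.763. Rescaling by the median ratio left 0 members higher between co-treatment and amiodarone. Of the counts 81 of 96 stayed within 1.5 times, and the cause of the shifts was not tested. The 81 include counts that were 0 under every setting, such as members lower in every comparison, so they overstate how stable the other counts were. No paired analysis was possible because each group had 1 library.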

Other observations

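The C1q chains and single macrophage genes did not keep one proportion across the libraries. The summed FPKM of the chains was 24.4 times that of Adgre1 with vehicle, 29.2 times with amiodarone, 24.1 times with dabigatran and 20.9 times with both drugs. Relative to Csf1r it was 2.63, 5.51, 2.72 and 4.17 times, and relative to Cd68 it was 3.56, 2.91, 4.31 and 2.10 times. Csf1r, the receptor for macrophage growth factor, was nearly level between libraries, at 38.7, 40.7, 40.9 and 44.9 FPKM, whereas Cd68, a lysosomal protein of macrophages, was at 28.6, 77.2, 25.8 and 89.2 FPKM. With these 3 genes, the direction in which the proportion differed between amiodarone and vehicle therefore depended on the marker chosen. Over all 12 macrophage genes the median ratio of amiodarone to vehicle was 1.78. Their sum without Lyz2 was at 1.73 times vehicle, against 2.21 times for the C1q chains.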
